A study of Mus musculus with 2 samples.

Results

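The genes described here were listed for the interstitial cells of Cajal, the fibroblast-like cells and the pericytes and fibroblasts around them in the gut wall. The list holds 10 genes, given by name: Kit, Kitl, Ano1, Prkcq, Pdgfra, Pdgfrb, Pdgfa, Gjc1, Cd34 and Thy1, of 21887 protein-coding genes tested. Among them Kitl and Pdgfa encode ligands of receptors on such cells, and are not markers of the cells that receive them. For each gene all peaks over its mm10 gene model with 1 kb to each side were taken, including those inside the model, which gave 36 of the 29924 peaks of the deposited list. The peaks mark trimethylation of histone H3 at lysine 4 (H3K4me3), mapped by chromatin immunoprecipitation and sequencing in cells labelled as NOS1+ neurons, sorted from mouse small intestine. The study held 1 H3K4me3 library and 1 input library, both from those sorted cells, and sets no genotypes, treatments or times against each other. Strain, age, the number of animals and the sorting method are not stated in these sources. With 1 library there is no replicate, so no value below carries a replicate error and no test between samples was possible. Nos1, the gene that names the sorted cells, had no peak at its 1 listed start. Its single peak, of 183 bp and scoring 13.0, lay 71608 bp inside its model, and other starts of Nos1 were not examined. The other 6 enteric neuron markers examined had a peak at the start, against 62.9% of all protein-coding genes. Of these Snap25 scored 11.6, lower than Nos1. All 5 glial and all 8 smooth muscle genes carried peaks, against 67.0% of all protein-coding genes. The smooth muscle genes had a median highest score of 19.0. Nos1 by itself thus does not bear out the label, and whether the sorted cells match it was not tested.

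NOS1 is the neuronal nitric oxide synthase, and the neurons that carry it relax gut muscle by releasing nitric oxide. Interstitial cells of Cajal are pacemaker cells that also receive signals from these neurons and are joined electrically to smooth muscle. They depend on the receptor tyrosine kinase KIT, which is activated by KIT ligand from neighbouring cells, and they carry the calcium-activated chloride channel ANO1. A separate fibroblast-like cell, marked by the receptor PDGFRA, passes inhibitory purine signals to the muscle. H3K4me3 lies mainly at promoters that are active or poised, most of all at promoters rich in CpG, the base pair step that DNA methylation acts on. Its presence does not show how much of a gene's RNA is made.

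All 10 genes carried at least 1 peak (exact 95% Clopper-Pearson interval 69.2 to 100%), and all 10 had 1 within 1 kb of a start or, for the 3 genes with no start in the table used, of an end of the model. Over all protein-coding genes 67.0% had a peak over the model and 62.9% had one at the start by the same rule. Among genes whose models are as long as those of the 10, from 5196 to 163478 bp, 75.7% had a peak over the model. The interval for the 10 genes holds the share among genes of like length and lies just above the share among all genes. But these genes were named, not drawn at random, and with all 10 called its lower bound depends on their number alone. Its place beside these shares thus does not set the 10 genes apart. The score is the authors' own value for each peak, on a scale that is not stated, and it serves here only to rank peaks of this list.

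The median width of the widest peak was 1511.5 bp over the 10 genes and 1515 bp over all 14665 protein-coding genes with a peak. The median of the highest score was 35.4 over the 10 genes and 152.6 over all those genes. Among the 10, Pdgfa alone lay above 152.6, with 158.2. In falling order of the highest score came Pdgfa, Kitl (121.3), Gjc1 (104.2), Prkcq (44.9), Pdgfrb (39.4), Kit (31.5), Pdgfra (28.2), Thy1 (25.5), Ano1 (21.8) and Cd34 (18.9). The first 3 stood well apart from the other 7, but without replicates it cannot be said which neighbours in this order differ. A score of 35.7 bounded the better-scored 50% of the list, and 5 of the 10 genes reached it, against 57.8% of all protein-coding genes. A score of 140.8 bounded the top 25%, which 1 of the 10 reached, against 37.3% of all.

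**Figure D1:**
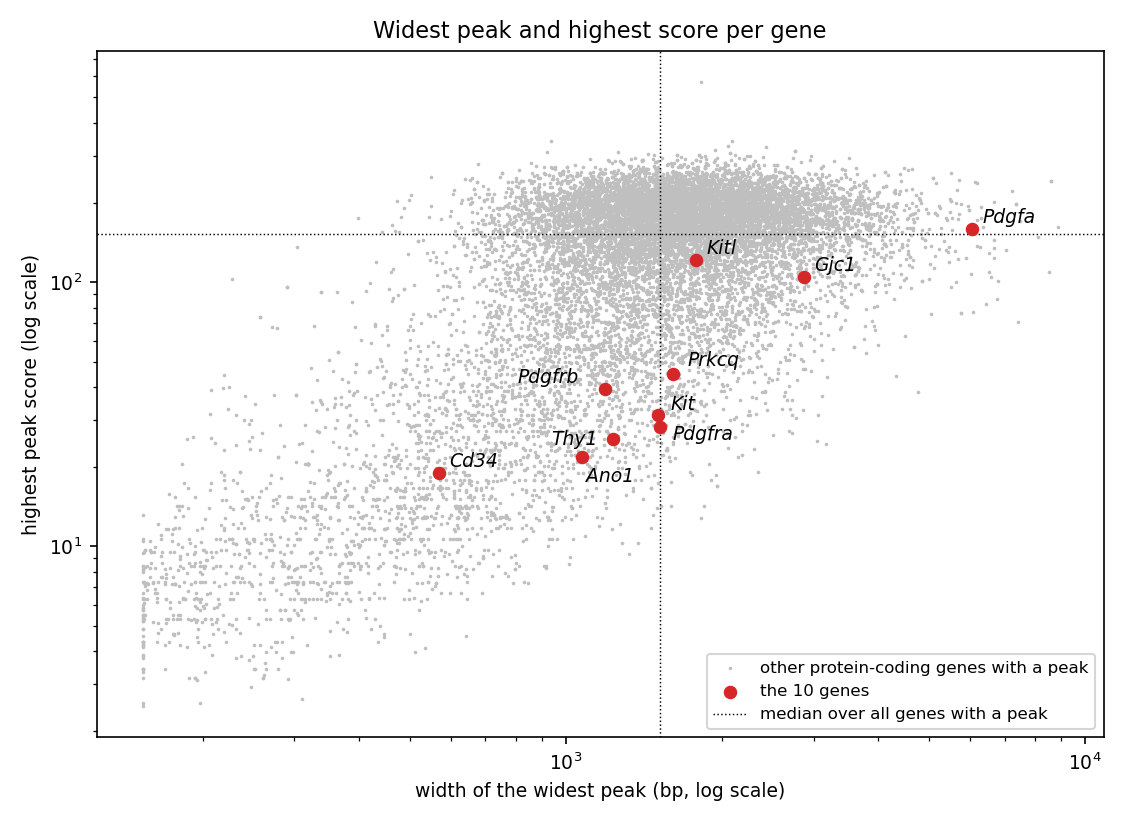
Width of the widest peak (bp, log scale) and highest peak score (log scale) per gene, with the 10 genes in red, the other protein-coding genes with a peak in grey and dotted lines at the medians over all genes with a peak. By width 5 of the 10 genes lie above and 5 below the median of 1515 bp, while 9 lie below the median score of 152.6.

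The scores were low also beside those of genes with peaks of like width. Each gene was set beside the other genes whose widest peak was within 10% of its own in width, a comparison chosen after the values were seen. All 10 genes lay below the median score of genes of like width, and 8 lay below the lower quartile. Of the 2582 genes of like width to Pdgfra, 1.82% had a lower score, and of the 2562 like Kit 2.34%. The shares were 2.56% for Thy1, 3.35% for Ano1, 4.87% for Prkcq and 7.48% for Pdgfrb. Gjc1 (12.7%), Kitl (21.2%), Cd34 (40.2%) and Pdgfa (46.2%) were closer to the middle of their groups. Genes of like width to Kit had a median score of 164.3 with a lower quartile of 116.0, against the 31.5 of Kit itself.

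The sequence before the start is shown for Pdgfa, Prkcq, Kit, Cd34 and Pdgfra, because the CpG content of a promoter goes with the presence of H3K4me3. Starts and sequences came from RefSeq on GRCm38.p6, which shares its chromosome coordinates with mm10, and 7 of the 10 genes matched. Each sequence is the 250 bases before the start, written 5′ to 3′ on the strand of the gene, with every CpG in capitals. Kit is at chr5:75574737-75574986 (plus strand), Prkcq at chr2:11172132-11172381 (plus), Pdgfra at chr5:75152001-75152250 (plus), Pdgfa, at the farther upstream of its 2 starts, at chr5:138994945-138995194 (minus), and Cd34 at chr1:194938571-194938820 (plus).
Pdgfa: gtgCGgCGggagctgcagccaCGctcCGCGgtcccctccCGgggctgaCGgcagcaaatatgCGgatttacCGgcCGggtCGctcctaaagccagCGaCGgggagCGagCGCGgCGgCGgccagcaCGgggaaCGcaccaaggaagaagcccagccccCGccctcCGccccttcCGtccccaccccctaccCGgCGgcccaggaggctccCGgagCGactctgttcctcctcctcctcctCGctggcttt
Prkcq: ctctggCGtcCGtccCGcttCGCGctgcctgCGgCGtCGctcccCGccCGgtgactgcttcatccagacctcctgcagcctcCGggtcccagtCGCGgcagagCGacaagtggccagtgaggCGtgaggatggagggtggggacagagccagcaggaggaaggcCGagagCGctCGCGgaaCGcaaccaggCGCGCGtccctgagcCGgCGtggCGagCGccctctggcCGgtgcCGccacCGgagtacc
Kit: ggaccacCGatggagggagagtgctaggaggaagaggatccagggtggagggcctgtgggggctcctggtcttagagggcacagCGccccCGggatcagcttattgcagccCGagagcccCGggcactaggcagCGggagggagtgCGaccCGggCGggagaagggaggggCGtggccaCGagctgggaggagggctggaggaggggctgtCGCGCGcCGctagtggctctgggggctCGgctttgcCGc
Cd34: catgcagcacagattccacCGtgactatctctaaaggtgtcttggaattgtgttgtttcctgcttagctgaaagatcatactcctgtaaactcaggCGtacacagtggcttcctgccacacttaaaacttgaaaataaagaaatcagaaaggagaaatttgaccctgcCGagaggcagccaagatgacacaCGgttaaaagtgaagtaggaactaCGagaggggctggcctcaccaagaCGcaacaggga
Pdgfra: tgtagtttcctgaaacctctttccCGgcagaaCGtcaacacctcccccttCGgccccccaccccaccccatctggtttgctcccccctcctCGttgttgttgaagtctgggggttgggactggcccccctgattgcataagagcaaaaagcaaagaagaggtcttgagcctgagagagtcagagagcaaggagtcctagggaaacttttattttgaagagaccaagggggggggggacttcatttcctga

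These windows ran from CpG-dense to CpG-poor. The window of Prkcq held 30 CpG, that of Pdgfa 28, that of Kitl 23, that of Kit 17, that of Ano1 16, that of Cd34 6 and that of Pdgfra 4. The median was 10 over 21263 such windows of protein-coding genes, and 15 over those of genes with a peak at the start. Among all windows with 0 to 4 CpG, 23.2% belonged to a gene with a peak at its start, against 67.0% with 5 to 9, 94.1% with 10 to 19 and 97.8% with 20 or more. Where a peak was present, its median score at the start was 92.3, 116.8, 158.4 and 172.1 in these 4 classes in the same order. In other genes of its class, 8.30% of windows with a start peak had a lower start score than Kit, 6.08% a lower one than Ano1 and 6.73% a lower one than Prkcq. The share was 22.5% for Kitl, 12.7% for Cd34 and 2.16% for Pdgfra. For Pdgfa it was 39.3% at the upstream window and 49.9% at the other. The start score of Pdgfra, 5.20, is that of a peak that began 683 bp after its start, within the 1 kb counted as at the start. Prkcq thus joined the densest CpG of the 7 genes to a start score of 44.9, and Kitl, with fewer CpG, had one of 121.3.

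Motifs were searched on both strands of the same windows. The 7 genes have 9 windows, since Kit and Pdgfa have more than 1. The letters GGGCGG, known as the GC box and bound by SP-family factors, stood in 7 of the 9 windows. These belong to 5 of the 7 genes, all but Pdgfra and Cd34. The share was 42.6% of all windows and 58.4% of those of genes with a peak at the start. CCAAT stood in 0 of the 9 windows, against 35.4% of all windows and 34.8% of those with a start peak. TATAAA stood in 1 of the 9, that of Kitl, against 11.6% of all and 6.32% of those with a start peak. It began 25 bases before the start. That stretch, chr10:100015761-100015820 on the plus strand, is shown with TATAAA in capitals.
Kitl: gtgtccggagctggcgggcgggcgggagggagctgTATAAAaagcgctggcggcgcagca

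The ligand and receptor pair of the interstitial cell of Cajal differed in score. Kitl encodes KIT ligand, also called stem cell factor, which in the gut is made by cells around the interstitial cells. Its model lies on chromosome 10 from 100015615 to 100100416. A 1784 bp peak scoring 121.3 reached from 722 bp before its start to 1061 bp after it. A second 1358 bp peak scoring 30.1 followed after a gap too short to part them when peaks closer than 1 kb were merged, which gave a region of 3198 bp. Inside the model lay 2 more peaks, of 185 bp with a score of 6.10 at 15826 bp after the start and of 389 bp with a score of 16.6 at 35349 bp. The score of Kitl at its start was thus above those of its other 3 peaks, and below the 152.6 that is the median over all genes with a peak.

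Kit, the receptor, lies on chromosome 5 from 75574987 to 75656722. Its start peak was 1505 bp wide with a score of 31.5, from 418 bp before the start to 1086 bp after it. Another 3 peaks followed within 3208 bp of the start, of 223, 286 and 474 bp with scores of 10.4, 6.81 and 9.17. Merged, the 4 peaks made a region of 3627 bp, of which 68.6% was covered. Of all 20127 merged regions 2.70% joined 4 or more peaks. Kit therefore had a peak near the median width of all genes at a score that 12.4% of genes with a peak fell below. The highest score of Kitl had 36.8% of them below it.

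Ano1 and Prkcq, which interstitial cells of Cajal also carry, had highest scores of 21.8 and 44.9. Both lay below 152.6, the median over all protein-coding genes with a peak. Ano1 lies on chromosome 7 from 144588549 to 144752026 on the minus strand, with its listed start inside the model. The peak over that start was 780 bp wide with a score of 21.0. Another of 785 bp (score 14.1) and one of 153 bp (score 4.68) followed it, and the 3 together spanned 1973 bp. The peak with the highest score over the gene, 21.8, was not at the start. It was 1075 bp wide, lay from 59469 to 60543 bp after the start, and had beside it a 215 bp peak scoring 7.32. No other gene of the RefSeq table has an end within 1 kb of these 2 peaks, and whether a further start of Ano1 lies there was not analysed here.

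Prkcq, which encodes protein kinase C theta, a kinase found in interstitial cells of Cajal and in T cells, lies on chromosome 2 from 11171905 to 11301226. Its start peak was 1606 bp wide with a score of 44.9, from 569 bp before the start to 1036 bp after it. A 260 bp peak scoring 6.28 followed directly. One more of 260 bp, with a score of 7.32, lay 20178 bp after the start. Of these 4 genes Kitl had the highest score at the start, then Prkcq, Kit and Ano1.

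**Figure D2:**
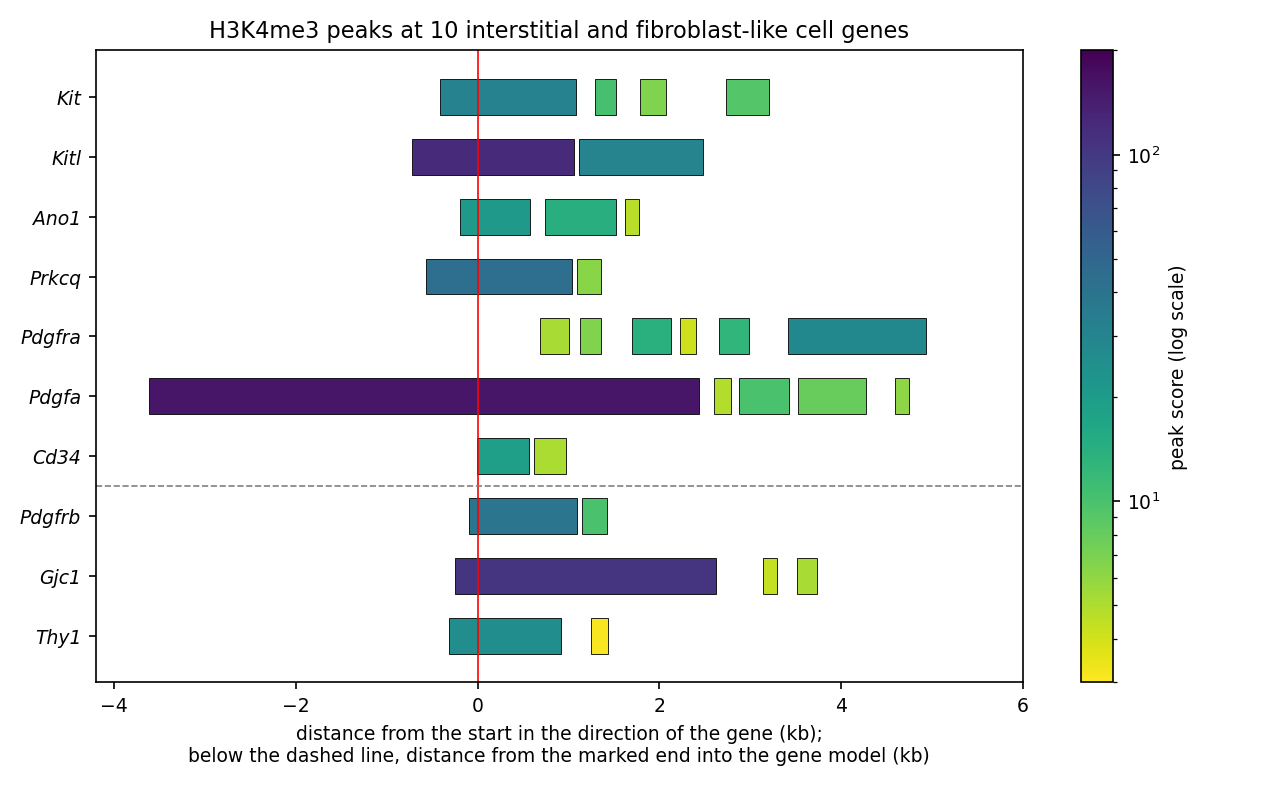
Peaks of the 10 genes as bars along the distance (kb) from the start in the direction of the gene, or, for the 3 genes below the dashed line, from the marked end into the model, coloured by score on a log scale. The peak of Pdgfa reaches farthest before its start, the 6 peaks of Pdgfra all lie after its start, and the internal peaks of Kitl, Ano1 and Prkcq lie beyond the right edge.

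The platelet-derived growth factor genes held both the widest peak and the most pieces. Pdgfa encodes a ligand of PDGFRA. Its model lies on chromosome 5 from 138976014 to 139000792, on the minus strand. A 6049 bp peak scoring 158.2, from 138992513 to 138998561, covered both listed starts, and reached from 3617 bp before the upstream one to 2431 bp after it. By width it ranked 31 among the 14665 genes with a peak, while by score it ranked 6870. A further 4 peaks of 153 to 754 bp, with scores from 4.85 to 9.96, lay after it. Merged, the 5 made a region of 8360 bp, wider than 99.8% of all merged regions. Its width thus ranked far higher than its score.

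Pdgfra, the receptor that marks the fibroblast-like cells, showed another pattern. Its model lies on chromosome 5 from 75151322 to 75198206, on the plus strand. No peak covered the listed start or the upstream end of the model. The first of 6 peaks began 683 bp after the start, with 323 bp and a score of 5.20. The next 4 were 231, 430, 182 and 328 bp wide with scores of 6.67, 14.0, 4.15 and 12.7. The last, from 3411 to 4928 bp after the start, was 1518 bp wide with the highest score of the gene, 28.2. In all the 6 peaks spanned 4246 bp, of which 70.9% was covered, and 0.502% of merged regions joined 6 or more.

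Such marking beside an unmarked start was rare in the list. Of 17492 protein-coding genes with a listed start, 172 (0.983%) had no peak within 500 bp of the most upstream start and a peak of at least 1 kb that began between 0.5 and 5 kb after it. This description was drawn up after the peaks of Pdgfra were seen, so it counts like genes and is no test of Pdgfra. The 17492 genes include those without any peak, and 11679 genes had both a start and a peak, so the share among marked genes would be higher. The window before the start of Pdgfra shown above also held the fewest CpG of the 7 genes. Which promoter the 6 peaks belong to cannot be read from a list of peaks and starts.

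Pdgfrb, the receptor of pericytes and other mural cells, lies on chromosome 18 from 61045127 to 61085067. A 1189 bp peak scoring 39.4 reached 94 bp beyond the lower end of the model, and a second of 275 bp with a score of 10.1 lay next to it inside. The first peak also lay 320 bp from an end of Gm52351, a predicted gene, so it counts for both. Pdgfrb had fewer pieces than Pdgfra, 2 against 6, with a higher score.

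Gjc1 encodes connexin 45, a gap junction protein, and lies on chromosome 11 from 102799477 to 102819686. A 2871 bp peak scoring 104.2 reached 253 bp beyond the upper end of the model. Another 2 narrow peaks of 217 and 153 bp, with scores of 5.17 and 4.33, lay farther in. By width Gjc1 exceeded 92.7% of genes with a peak, and by score 31.6%.

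The surface markers had 2 peaks each. Cd34, a surface glycoprotein of fibroblast-like cells, endothelium and blood progenitors, lies on chromosome 1 from 194938821 to 194961292. Its start peak was 570 bp wide with a score of 18.9 and began 3 bp before the start, and a second of 354 bp with a score of 5.07 followed. Thy1, a surface glycoprotein of fibroblasts, T cells and many neurons, lies on chromosome 9 from 44043384 to 44048579. A 1234 bp peak scoring 25.5 reached 314 bp beyond the lower end of its model, with a second of 182 bp and a score of 3.11 inside. The first also lay 886 bp from an end of the noncoding gene Gm39323. Of the 10 genes Cd34 had the least in both width and score.

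In pieces per gene the 10 had a median of 3.5 peaks, from 2 to 6, against 2 over all protein-coding genes with a peak. All 10 had at least 2 peaks, against 35.7% of all protein-coding genes, 53.3% of those with a peak and 39.8% of all genes of a length within their range. With peaks under 300 bp left out, 6 of the 10 genes kept at least 2, against 37.5% of genes with a peak, and Prkcq, Pdgfrb, Gjc1 and Thy1 had 1 each. The median over the 10 was then 2, against 1 over all genes with a peak. Of the 36 peaks 41.7% were narrower than 300 bp, against 27.9% of the whole list, and the median score of the 36 was 10.03 against 35.7. The depth of the library is unknown, and its part in the number of pieces was not tested.

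Around the start the marking was described for the 7 genes that have one listed. In all 7 more peak length lay in the 5 kb after the start than in the 5 kb before it, against 75.8% of the 11679 genes with a start and a peak, a direction that most genes share. The median length was 2070 bp after and 418 bp before the start in the 7 genes, against 1061 bp and 540 bp in all. In the first 1 kb on each side the medians were 1000 bp after and 418 bp before, against 955 bp and 495 bp. After the start the medians of the 7 and of all genes were close within 1 kb and further apart within 5 kb. Coverage after the start was broken by gaps between pieces. At 600 bp 4 of the 7 genes were covered by a peak, against 79.4% of all, and at 800 bp 7 of the 7, against 68.3%. At 1300 bp 6 of the 7 were covered, against 32.3%, and at 1600 bp 2 of the 7, against 19.8%. At 2000 bp it was 4 of the 7, against 11.2%, and at 2500 bp 0 of the 7, against 6.47%. These distances were picked after the coverage was seen. Neighbouring ones differ, with 3 of the 7 at 1100 bp (44.7% of all) and 5 of the 7 at 1200 bp (37.6%). At the start itself 6 of the 7 were covered, against 80.5% of all with a peak and 53.8% of all 17492 genes with a listed start.

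**Figure D3:**
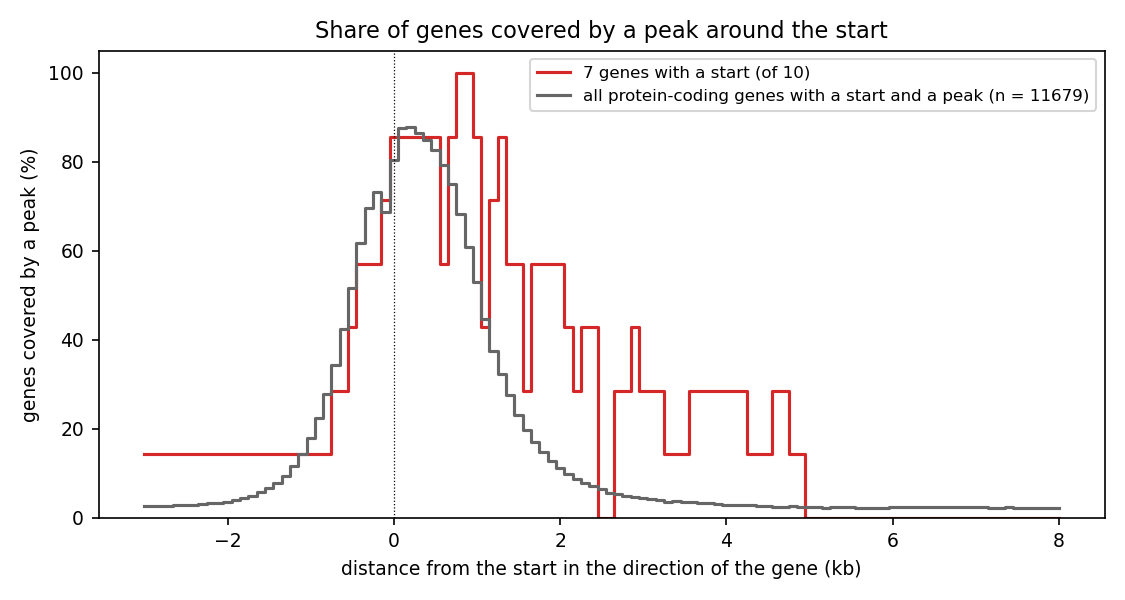
Share of genes covered by a peak (%) at each distance (kb) from the start in the direction of the gene, for the 7 genes with a listed start (red) and all 11679 protein-coding genes with a start and a peak (grey). At the start itself 6 of the 7 genes are covered, against 80.5% of all. After it the red line moves up and down with gaps between peaks. It stands at 7 of the 7 genes at 800 bp (68.3% of all), 4 at 2000 bp (11.2%) and 0 at 2500 bp (6.47%), distances picked after the values were seen. Each of the 7 genes is a large step of the red line.

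Other genes of the same pathways were taken as lists. All 7 genes of the platelet-derived growth factor family had a peak, with a median highest score of 64.5, and this list includes Pdgfa, Pdgfra and Pdgfrb. The ligand gene Pdgfc had 1856 bp with a score of 124.8, Pdgfd 1105 bp with 48.0, and the receptor-like gene Pdgfrl 723 bp with 64.5. Pdgfb had a 5510 bp peak scoring 95.9 inside its model, more than 1 kb from either end. The 2 ligand genes Pdgfa and Pdgfb had the widest peaks of the family.

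All 8 genes for receiving nitric oxide had a peak, with a median highest score of 80.6. The exact interval of 63.1 to 100% for these genes holds the 67.0% of all protein-coding genes with a peak. The subunit genes of soluble guanylate cyclase, the receptor of nitric oxide, stood at 44.8 (Gucy1a1), 80.2 (Gucy1a2) and 81.0 (Gucy1b1). Prkg1, the cyclic GMP-dependent kinase, had a score of 138.8 and Pde5a, a phosphodiesterase that breaks down cyclic GMP, 148.6, and Pde3a, another phosphodiesterase, 107.6. Mrvi1, a substrate of that kinase, had 26.9 and Pde1a 17.9.

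Of 12 other genes of interstitial and fibroblast-like cells, all had a peak, with a median highest score of 99.2. Their exact interval of 73.5 to 100% lies above the 67.0% of all protein-coding genes with a peak. It holds the 75.7% among genes of a length within the range of the 10 genes. With all 12 called its lower bound depends on their number alone, so it does not set this list apart. Ano6 (188.6), Ano10 (166.2) and Etv1 (146.8), a transcription factor of interstitial cells of Cajal as well as of inhibitory motor neurons, stood highest. Among genes of the PDGFRA-marked cell, P2ry1, a purine receptor, had 2571 bp with 119.2 and Kcnn3, the channel SK3, 2867 bp with 50.1. The gap junction gene Gja1 had 3156 bp with 89.0, against 2871 bp with 104.2 for Gjc1. Tacr1, a tachykinin receptor of interstitial cells, had the lowest score of this list, 5.74. Many of these genes are also active in neurons or in most cells.

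Markers of the cell types that could hold such marks were counted in the same way. Over all protein-coding genes 67.0% had a peak. For every list from smooth muscle to enteric neurons below, the exact interval held that share. It was 63.1 to 100% for smooth muscle and 11.8 to 88.2% for endothelium. These counts alone thus do not set those lists apart from all genes. Smooth muscle genes had peaks in 8 of 8, with scores from 8.38 to 125.9 and a median of 19.0. Pericyte genes had them in 6 of 6 (14.1 to 144.3, median 45.5) and fibroblast genes in 8 of 10 (4.33 to 154.9, median 69.3), with none at Dpt and Pi16. Mesothelial genes had them in 4 of 4 (6.68 to 19.8). Endothelial genes had them in 3 of 6 (7.63 to 91.5), with none at Cdh5, Tek and Emcn. Glial genes had them in 5 of 5 (26.9 to 102.2), and the 7 markers of enteric neurons in 7 of 7 (11.6 to 147.9), of which Nos1 held 1 narrow peak of 183 bp far inside its model.

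Kit also marks mast cells, and Prkcq and Thy1 also mark T cells. The exact interval for the share with a peak was 0.361 to 57.9% for mast cell genes, below the 67.0% of all protein-coding genes. For T cell genes it was 4.33 to 77.7%, which holds that share. Neither list was set beside genes of like length or CpG. The models of Tpsb2 (1789 bp), Mcpt1 (2428 bp) and Mcpt4 (2567 bp) are shorter than any of the 10 genes, of which the shortest has 5196 bp. Whether length or CpG bears on the low share of mast cell genes was not tested. Mast cell genes had a peak in 1 of 7, at Hdc alone, with a score of 12.5 and not at its start, and the mast cell genes Cpa3, Ms4a2, Tpsb2, Mcpt4, Mcpt1 and Fcer1a had none. T cell genes had one in 2 of 6, at Cd3d (153 bp, 5.29) and Lck (53.3), neither at a listed start, and none at Cd3e, Cd3g, Cd2 and Trbc1. A weak peak in a bulk library can come from a strong mark in few cells or a weak one in many, and these cannot be told apart here. The part of any of the listed cell types in the peaks of the 10 genes was not tested. That holds for neurons, glia, smooth muscle, fibroblasts, pericytes, mesothelium, endothelium, mast cells and T cells alike.

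**Figure D4:**
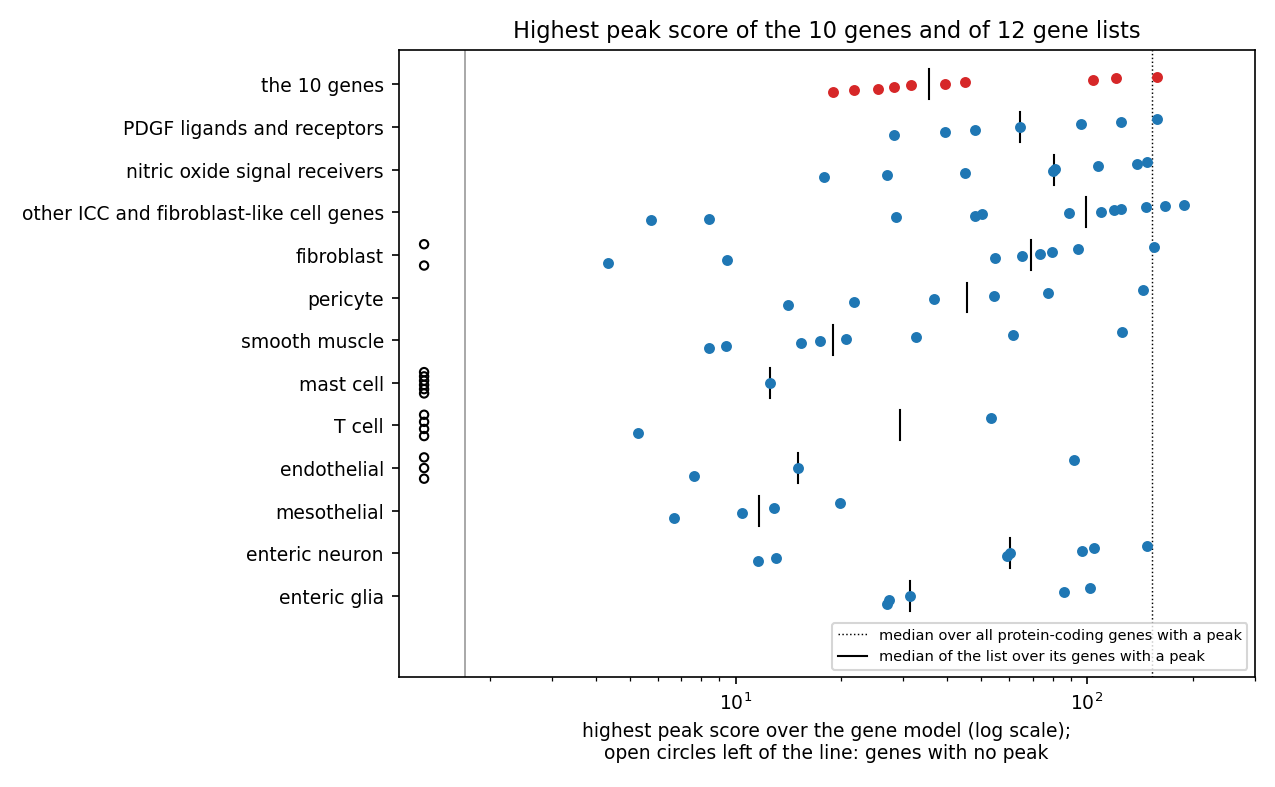
Highest peak score over the gene model (log scale) for the 10 genes (red) and the genes of 12 lists (blue), each point a gene, with open circles for genes without a peak, a bar at the median of each list's genes with a peak and a dotted line at 152.6, the median over all protein-coding genes with a peak. All 10 genes carry peaks, as do 67.0% of all protein-coding genes, and 6 of 7 mast cell genes and 4 of 6 T cell genes carry none. No share among genes of like length or CpG was computed for these mast cell and T cell lists.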

How the data were processed

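H3K4me3 was measured in 1 library labelled as sorted NOS1+ neurons, with 1 input library whose file was not used here. BWA, Picard, MACS2 and build mm10 are named, without roles or versions, in the submitters' processing notes, and MACS2 and paired ends per the file headers. The deposited score of each peak has no stated scale, and threshold and duplicate handling are not stated in these sources. Depth is unknown, so no interval for depth was computed.

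The 10 genes and the 12 lists (86 symbols, 1 matched by a synonym) were chosen with earlier results of these data known. Gene models came from RefSeq on GRCm38.p6. A gene was called with at least 1 bp of a peak in its window. Starts came from the promoter table, from which strand was read, and both ends of the model stood in for genes without one. Of each list all genes were counted, and the examples are those with the highest scores, those without a peak, and some others named after their values were seen. One gene of the lists is counted and not named here. The code, in Python 3.11.15 with numpy 2.4.6, pandas 2.3.3 and scipy 1.17.1, was tested on simulated peaks. Alternatives were other score limits, windows, widths, overlaps and merging. A background of genes of like length was added after seeing the data.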

Additional observations from a re-analysis of the deposited data

How the results depend on the processing

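The count of genes with a peak over the model depended on the score limit alone among the settings tried. It was 5 of 10 when the better-scored 50% of the list was kept and 1 of 10 when the best 25% was kept, against 57.8% and 37.3% of all protein-coding genes. The counts at the start were also 5 and 1, against 54.6% and 35.4%. The genes lost in the first case were Kit, Ano1, Pdgfra, Cd34 and Thy1, and in the second only Pdgfa was kept. With no flank, 500 bp, 2500 bp, peaks of at least 300 bp, merged peaks or 50% of the peak inside the window, all 10 kept a peak over the model, but with peaks of at least 300 bp only 6 kept 2 or more. At the start the count was 9 with no flank or 500 bp, where Pdgfra was lost, 8 with 50% of the peak inside, where the wide peaks of Pdgfa and Gjc1 were lost, and 7 at either end of the model, where Ano1, Pdgfra and Pdgfa were lost. Merging peaks closer than 1 kb changed the width and number of peaks of all 10 genes by its construction. No paired analysis was possible because there was 1 library, and for the same reason none could be left out. Unknown depth limits what the absence or breaking up of a weak peak can show.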

Other observations

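Between 5587 and 18457 bp from the models of 3 of the 10 genes lay peaks with higher scores, at other genes. Within 20 kb of the model of Ano1 a 1554 bp peak scoring 189.7 lay at Fadd, 5587 bp away. Beyond the model of Cd34 one of 1590 bp with a score of 177.4 lay at the noncoding gene Gm16897, 15054 bp away. Near Thy1 one of 1057 bp with a score of 107.7 lay at Usp2, 18457 bp away. Each of these scores was over the highest score of the gene whose window it missed, so a window that reached them would have changed the values of these 3 genes. Around Pdgfra a single 165 bp peak scoring 11.9 lay 7962 bp from the model, at Gm19583. The other 6 genes had none within 20 kb outside their windows.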
